A study of Mus musculus with 13 samples.

Results

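Strongly repressed genes of unclear T cell role form a group of 8 transcripts: Stfa3, Dapl1, AB124611, Gpm6b, Cybb, Cd22, Popdc2 and Ms4a4c. They were picked by name from the largest falls that 2 ligands of the aryl hydrocarbon receptor (AhR) gave in dividing donor CD4+ T cells, and they are 8 of 22180 genes measured by a probe set naming 1 gene. Each has a single such probe set, so no second probe set could be compared. Because the differences from vehicle chose the genes, those differences are given here as a description, without a test.

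The model is acute graft-versus-host disease, an attack on the host by donor T cells. CFSE is a dye that is diluted at each division. Labelled C57Bl/6 splenocytes were injected into B6D2F1 hosts, both strains being 10 to 12 weeks old. On day 3, at 72 h, responding CD4+ cells with 2 or more divisions were enriched with beads and sorted from spleen and lymph node. All 3 groups received donor cells and differed in treatment: 4 arrays came from hosts given vehicle on days 0, 1 and 2, 4 from hosts given TCDD at 15 µg/kg on day 0, and 5 from hosts given Cl-BBQ at 10 mg/kg on days 0, 1 and 2. The ligands therefore differed in dose and schedule, and TCDD also differed from vehicle in its days of injection. The labels give 4 to 5 mice per group and call the arrays biological replicates without naming the mouse behind each one. The treatments were given to the whole animal, so host cells were exposed as well as the donor T cells.

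AhR is a transcription factor of the cytosol that moves to the nucleus once a ligand such as TCDD (dioxin) binds it. There it pairs with ARNT and binds DNA sites with the core GCGTG, which is best known from induced genes of xenobiotic metabolism. Several of the 8 genes are known mainly from other cells. Cybb encodes the catalytic subunit of the phagocyte NADPH oxidase, which makes superoxide. Cd22 encodes a sialic acid-binding inhibitory receptor of B cells. Popdc2 encodes a membrane protein that binds cyclic AMP in heart and skeletal muscle, and Gpm6b a membrane protein of neurons and glia. Stfa3 belongs to the stefin A family of cytosolic inhibitors of cysteine cathepsins. Ms4a4c belongs to the MS4A family of proteins that span the membrane 4 times. Dapl1 is related to the death-associated protein gene Dap, and its transcript is used as a marker of naive-like T cells.

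Levels are log2 expression values as deposited, so a difference of 1 is a 2-fold change. The floor is 4.31, the median of all values; a gene was tested if it exceeded the floor on at least 4 of 13 arrays, which 12710 genes did, and differences are compressed below it. All 8 genes passed this filter. Cd22 passed through the vehicle arrays alone, where it was above the floor on 4 of 4 arrays against 0 of 4 with TCDD and 0 of 5 with Cl-BBQ. Popdc2 passed with 4 vehicle arrays, 1 TCDD array and 1 Cl-BBQ array, and Stfa3 with 4, 3 and 0. Neither Popdc2 nor Stfa3 would have passed without the vehicle arrays. In bulk RNA, fewer cells carrying a transcript and less transcript per cell cannot be told apart.

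For 8 of the 8 genes the highest treated array, with either ligand, was below the lowest vehicle array. Over all tested genes, 7.28% lay below vehicle without overlap with TCDD and 6.80% with Cl-BBQ; nothing is read from this, since the genes were chosen by these contrasts. The median log2 difference of the 8 was -2.14 with TCDD and -2.63 with Cl-BBQ, beside medians of -0.00089 and -0.0064 over all tested genes. Leaving out any 1 array kept each member's difference negative wherever it was still tested. Genes chosen for falls of this size left little room for another outcome. Both differences share the same 4 vehicle arrays, so they are not independent of each other.

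**Figure D1:**
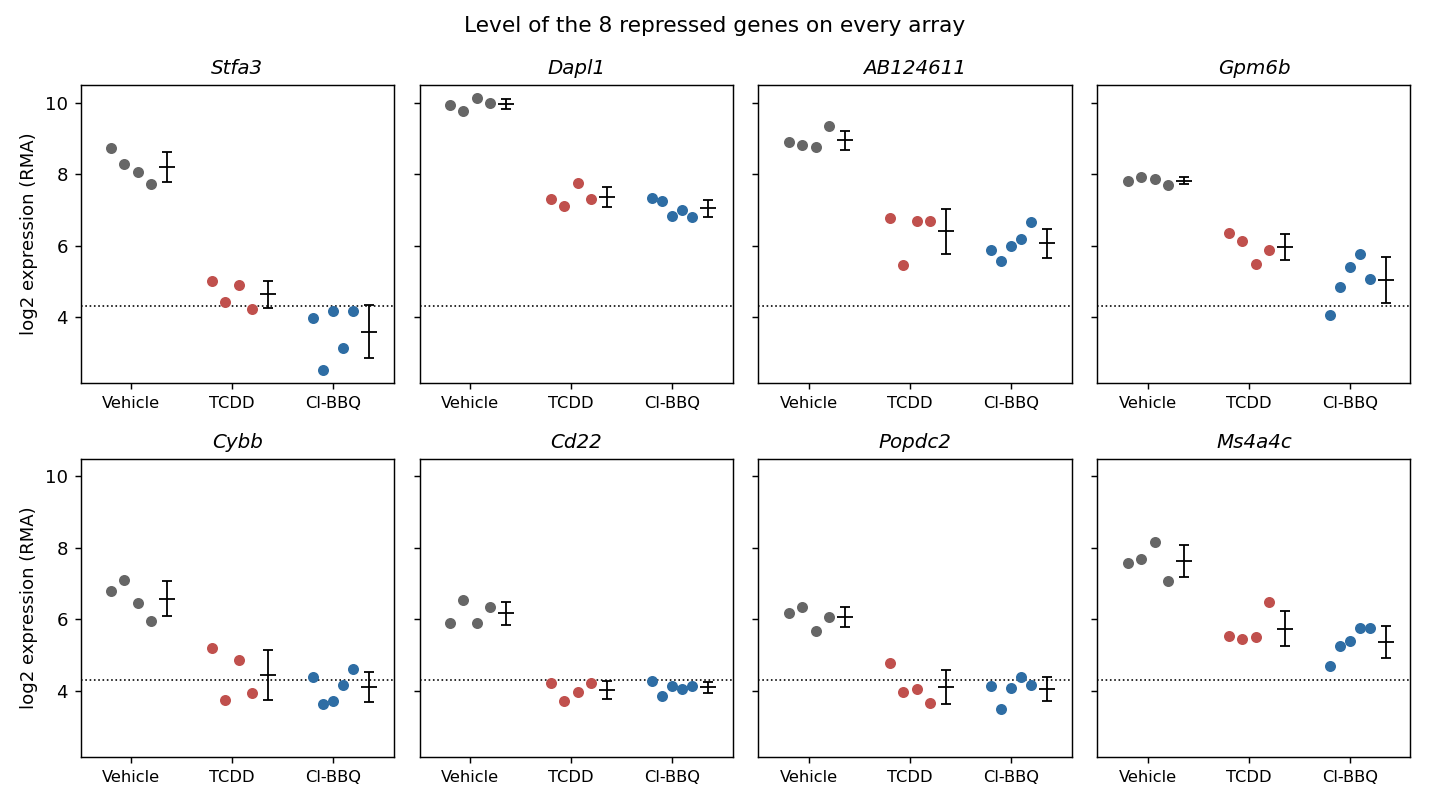
Log2 expression (vertical axis) of each of the 8 genes on 4 vehicle, 4 TCDD and 5 Cl-BBQ arrays; each point is 1 array, the bar beside the points is the mean with its SD, and the dotted line is the floor of 4.31. In every panel the vehicle points lie above all treated points, and Cd22 is below the floor on every treated array.

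Stfa3 had the largest fall of any tested gene with either ligand. Its level on the vehicle arrays was 8.72, 8.27, 8.06 and 7.74. With TCDD it was 5.00, 4.43, 4.91 and 4.23, and with Cl-BBQ 3.97, 2.53, 4.18, 3.15 and 4.16. The 3 groups did not overlap, and every Cl-BBQ array was below the floor. The log2 difference from vehicle was -3.56 ± 0.33 (limma's SE) with TCDD, or 11.8-fold, and -4.60 ± 0.32 with Cl-BBQ, for which no fold is given because all 5 arrays are below the floor. Stfa3 varied most within groups of the 8 genes, with a pooled SD of 0.55 that exceeded the SD of 98.8% of tested genes.

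The RefSeq promoter window of Stfa3 is shown because it is 1 of the 2 among these genes that hold the AhR core. It runs from 250 bases before to 50 after the start site, on the minus strand of chr16:36455343-36455642 in GRCm38.p6, and the capitals mark GCGTG, which begins at position -231 from the start.
Stfa3 promoter: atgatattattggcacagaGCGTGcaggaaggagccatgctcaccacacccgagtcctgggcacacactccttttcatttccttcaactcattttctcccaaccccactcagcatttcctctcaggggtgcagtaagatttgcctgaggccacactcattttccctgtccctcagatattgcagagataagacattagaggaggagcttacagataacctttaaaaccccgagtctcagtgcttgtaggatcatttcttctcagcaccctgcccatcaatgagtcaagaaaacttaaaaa

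Dapl1 had the next largest difference among the 8 with both ligands. Vehicle arrays held 9.92, 9.78, 10.12 and 10.00. TCDD arrays held 7.29, 7.12, 7.75 and 7.30, and Cl-BBQ arrays 7.33, 7.24, 6.84, 6.99 and 6.81. At least 2.02 log2 units separated the lowest vehicle array from the highest TCDD array, and all treated arrays stayed above the floor. The log2 difference was -2.59 ± 0.15 (SE) with TCDD and -2.91 ± 0.14 with Cl-BBQ. Its pooled SD of 0.22 was the smallest of the 8.

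Cd22, the B cell lectin, was measured at 5.91, 6.54, 5.89 and 6.33 with vehicle. It was at 4.21, 3.71, 3.97 and 4.22 with TCDD and at 4.29, 3.85, 4.14, 4.07 and 4.14 with Cl-BBQ. Every treated array was below the floor, and the difference was -2.14 ± 0.16 (SE) with TCDD and -2.07 ± 0.15 with Cl-BBQ. AB124611 was at 8.91, 8.82, 8.75 and 9.34 with vehicle. It was at 6.78, 5.47, 6.68 and 6.68 with TCDD and at 5.88, 5.57, 6.01, 6.19 and 6.67 with Cl-BBQ. TCDD replicate 2 stood below the other TCDD arrays, and the AB124611 difference of -2.55 ± 0.28 was -2.24 without it. The AB124611 difference with Cl-BBQ was -2.89 ± 0.26.

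Ms4a4c was at 7.57, 7.70, 8.18 and 7.08 on the vehicle arrays. Its TCDD values were 5.54, 5.47, 5.50 and 6.47, and its Cl-BBQ values 4.70, 5.25, 5.40, 5.77 and 5.77. TCDD replicate 4 stood above the other TCDD arrays; the difference of -1.89 ± 0.28 (SE) was -2.13 without it, and that with Cl-BBQ was -2.25 ± 0.27. Ms4a4c had the smallest gap of the 8 between vehicle and TCDD, 0.60 log2 units.

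Gpm6b, of the proteolipid family, was at 7.80, 7.93, 7.86 and 7.70 with vehicle, the narrowest vehicle spread of the 8 genes (SD 0.10, n = 4). TCDD arrays had 6.36, 6.14, 5.48 and 5.88, and Cl-BBQ arrays 4.07, 4.85, 5.40, 5.78 and 5.07. Vehicle arrays were tight while the Cl-BBQ arrays spread over both sides of the floor (SD 0.64, n = 5). Differences were -1.86 ± 0.28 (SE) with TCDD and -2.79 ± 0.27 with Cl-BBQ.

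The Gpm6b window is the other one with the AhR core, here on the opposite strand and so written CACGC, beginning at position -227 from the start. It is on the plus strand of chrX:166238693-166238992 in GRCm38.p6, and capitals mark the core.
Gpm6b promoter: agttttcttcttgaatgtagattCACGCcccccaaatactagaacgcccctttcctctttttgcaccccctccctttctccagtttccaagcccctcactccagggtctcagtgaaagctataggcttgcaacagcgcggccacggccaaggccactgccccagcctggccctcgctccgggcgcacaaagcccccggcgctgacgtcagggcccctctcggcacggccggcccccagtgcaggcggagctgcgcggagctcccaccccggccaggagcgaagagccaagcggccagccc

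Popdc2, the cyclic AMP-binding membrane protein gene, was at 6.17, 6.34, 5.68 and 6.07 with vehicle. The TCDD arrays gave 4.79, 3.98, 4.05 and 3.65, and the Cl-BBQ arrays 4.14, 3.49, 4.09, 4.38 and 4.16. Only 1 array of each treated group was above the floor. The differences were -1.95 ± 0.23 (SE) and -2.01 ± 0.22.

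Cybb, the oxidase gene, was at 6.81, 7.11, 6.46 and 5.96 with vehicle. It was at 5.20, 3.76, 4.85 and 3.94 with TCDD and at 4.38, 3.65, 3.71, 4.18 and 4.61 with Cl-BBQ. Cybb exceeded the floor on 2 of 4 TCDD and 2 of 5 Cl-BBQ arrays. Its differences were -2.15 ± 0.33 (SE) and -2.48 ± 0.31, and its pooled SD of 0.54 exceeded that of 98.7% of tested genes.

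The Cybb window, on the minus strand of chrX:9469275-9469574 in GRCm38.p6, is shown because it alone of the 8 holds the interferon response type motif GAAA, any 2 bases, GAAA, in 3 places over both strands. The capitals mark these matches.
Cybb promoter: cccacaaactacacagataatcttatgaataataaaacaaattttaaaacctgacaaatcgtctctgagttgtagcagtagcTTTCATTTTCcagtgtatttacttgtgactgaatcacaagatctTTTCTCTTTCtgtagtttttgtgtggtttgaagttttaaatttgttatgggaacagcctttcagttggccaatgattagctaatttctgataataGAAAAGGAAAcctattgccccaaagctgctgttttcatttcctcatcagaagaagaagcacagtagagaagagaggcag

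Over the 8 windows, all of which matched a RefSeq entry of GRCm38.p6, GCGTG occurred in 2 (all motifs were searched on both strands), against 32.4% of 32851 windows of the same length. The longer TNGCGTG, which contains the core, occurred in 0 of the 8 and in 5.07% of all windows. GAAA, any 2 bases, GAAA occurred in 1 of the 8 and in 3.44% of all windows. These are matches of letters in a short window and say nothing of binding.

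The ligands were then compared with each other. For Gpm6b, Cd22 and Popdc2 this is a description, because each was among the 10 largest falls with 1 ligand only and so was chosen in part for a difference between them. For these genes the Cl-BBQ minus TCDD log2 difference was -0.93 (95% interval -1.50 to -0.36), 0.07 (-0.25 to 0.39) and -0.06 (-0.53 to 0.40). The other 5 were among the 10 largest falls with both ligands (for Ms4a4c with TCDD only when microRNA genes are left out of the ranking). All 5 had a lower mean with Cl-BBQ than with TCDD, beside a median difference of -0.0044 over all tested genes. The 5 were measured on the same arrays, and the share of all tested genes with a lower mean is not given. Nothing is read from this count. None of these 5 was called (limma, Benjamini-Hochberg adjusted p under 0.05 over 12710 genes), with 2 at an unadjusted p under 0.05. Over all tested genes 0.0236% were called in this contrast and 6.41% had an unadjusted p under 0.05.

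Stfa3 had the largest ligand difference of the 5. It was -1.04 (95% interval -1.72 to -0.36), with all 5 Cl-BBQ arrays below all 4 TCDD arrays (limma, adjusted p = 0.53). Only 3 of 4 TCDD arrays and 0 of 5 Cl-BBQ arrays exceeded the floor, so Stfa3 met the filter only with its vehicle arrays. This difference therefore lies largely at or below the floor, where differences are compressed. Among all tested genes, 1.08% had Cl-BBQ arrays below TCDD arrays without overlap. Dapl1 differed by -0.32 (-0.63 to -0.02; limma, adjusted p = 0.75). The intervals of AB124611 (-0.90 to 0.22), Cybb (-0.997 to 0.33) and Ms4a4c (-0.94 to 0.21) all held 0, with limma adjusted p of 0.90, 0.93 and 0.90. The intervals leave differences of up to about 1 log2 unit in these genes, so they do not show that the ligands acted alike. Across all alternatives the smallest adjusted p for Stfa3 was 0.33.

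**Figure D2:**
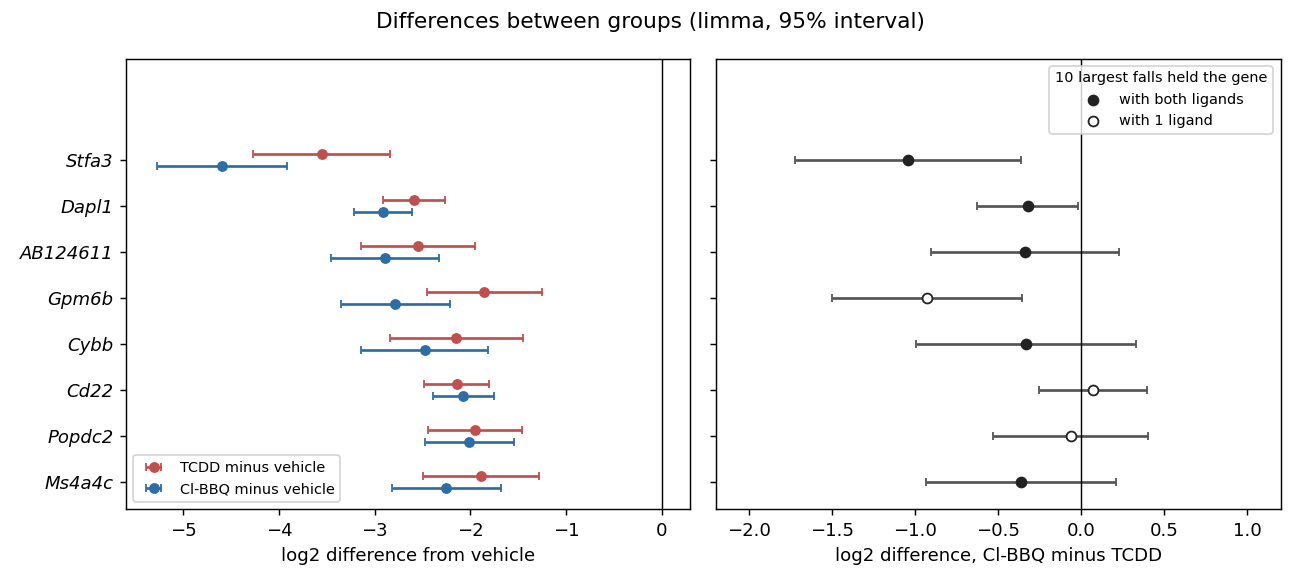
Left, log2 difference from vehicle (horizontal axis) of the 8 genes with TCDD and Cl-BBQ; right, Cl-BBQ minus TCDD, with filled points for the 5 genes among the 10 largest falls with both ligands and open points for the 3 with 1 ligand. Points are limma estimates and bars 95% intervals. The left panel shows the differences that chose the genes. On the right, of the filled points, Stfa3 and Dapl1 have intervals below 0, though neither was called after adjustment. The open points are a description only, since those genes were chosen in part for a difference between the ligands.

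At the edge of the choice, in a ranking without predicted genes, RIKEN clones, receptor segments and microRNA genes, Ms4a4c held place 10 among the falls with TCDD (-1.89) and Gpm6b place 11 (-1.86). With Cl-BBQ, Gstp3 held place 10 (-2.11) and Cd22 place 11 (-2.07). Over all tested genes Ms4a4c held place 11 with TCDD and Gpm6b place 12, since Mir103-2 (-2.08) then ranks above them. Leaving out microRNA genes was decided after this had been seen, to match the list the genes were picked from. Genes with accession-type names, such as AB124611, stayed in the ranking. Itgb1, Nrp1, Shcbp1, H1f1 and Gstp3 were the other genes within those places and are not among the 8.

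All 8 genes had a pooled SD above the median of all tested genes (0.20). It exceeded the SD of 62.4% of tested genes for Dapl1 and 69.1% for Cd22, and of 93.5% or more for the others. For Stfa3, Gpm6b, Cybb, Cd22 and Popdc2 the pooled SD includes treated arrays below the floor. Some arrays were the lowest of their group for several of these genes. The share over all tested genes was not computed, so nothing is read from these counts. TCDD replicate 2 was the lowest TCDD array for 5 of the 8 genes, with a mean deviation of -0.33 from the group mean. Cl-BBQ replicate 2 was the lowest Cl-BBQ array for 5 of the 8, with a mean deviation of -0.37. Part of these low values lay below the floor: Cybb and Cd22 on TCDD replicate 2, and Stfa3, Popdc2, Cybb and Cd22 on Cl-BBQ replicate 2. The largest deviation on Cl-BBQ replicate 2 was that of Stfa3, -1.07. Conversely, TCDD replicate 1 was the highest TCDD array for 5 genes and Cl-BBQ replicate 5 was above its group mean for 7.

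Genes of nearest pattern were found by the root mean square difference of log2 values, each taken from the gene's own vehicle mean, over 13 arrays among all tested genes. This distance depends largely on the size of the fall, which also chose these genes. Other genes with large falls are therefore bound to recur, and nothing is read from this on shared regulation. Cd22 and Popdc2 were each other's nearest gene, at 0.31 log2 units. Shcbp1, which encodes a partner of the adaptor Shc, came next for both, at 0.33 and 0.34. Sema4a, a semaphorin gene, followed for Cd22 (0.47) and Dhrs3, a retinal reductase gene, for Popdc2 (0.42). Dapl1 and AB124611 were 0.44 apart and both were nearest to Nrp1, a semaphorin co-receptor gene (0.42 and 0.40). Itgb1, an integrin chain, followed for Dapl1 (0.49) and Cybb for AB124611 (0.57). Cybb was nearest to Popdc2 (0.46), then Cd22 (0.51) and AB124611.

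Gpm6b was nearest to Ms4a4c (0.53), then to Gstp3, a glutathione transferase gene (0.60), and Popdc2 (0.64). Ms4a4c was nearest to Gstp3 (0.47), Sema4a (0.47) and Shcbp1 (0.48). Stfa3 had the most distant matches of the 8: its nearest gene, Itgb1, was 1.02 away, followed by Nrp1 (1.22) and Dapl1 (1.30). Its fall was the largest of any tested gene with either ligand, so no gene could match it in size.

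The 8 genes were set beside their families and the pathways they belong to. Of 69 related genes tested, 12 rose and 2 fell with TCDD, and 16 rose and 3 fell with Cl-BBQ (limma, adjusted p under 0.05). Over all tested genes 3.21% were called higher and 3.50% lower with TCDD, and 5.31% and 6.03% with Cl-BBQ. The median difference of the related genes was 0.09 with TCDD and 0.05 with Cl-BBQ, beside the medians near 0 of all tested genes given above.

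The stefin A genes around Stfa3 on chromosome 16 are close relatives in sequence, and how far the Stfa3 probe set also reads them was not examined. All 10 relatives with a probe set had group means below the floor, between 1.65 and 3.62, and none was tested. In the order vehicle, TCDD, Cl-BBQ, Stfa1 was at 3.40, 3.00 and 2.90, Stfa2 at 2.80, 2.73 and 2.61, and Stfa2l1 at 2.43, 2.49 and 2.53. Among the 4 tested cystatin genes, Cst7, encoding cystatin F of cytotoxic granules, rose with TCDD (0.58 ± 0.10 SE, limma, adjusted p = 0.0022) and Cl-BBQ (0.54 ± 0.10, adjusted p = 0.0014). The other 3 were not called, and the median of the 4 was 0.21 and 0.14.

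Cysteine cathepsins are the proteases that stefins inhibit. Of 9 genes tested in this list, which also holds Lgmn (not a cathepsin), 2 rose with TCDD and 3, Lgmn among them, with Cl-BBQ. None fell, and the medians were 0.23 and 0.25. Ctsw, a cathepsin of cytotoxic lymphocytes, rose by 1.08 ± 0.11 (SE; limma, adjusted p = 3.1e-05) with TCDD and 1.52 ± 0.11 (adjusted p = 3.4e-07) with Cl-BBQ. Ctsc, which activates granzymes, rose by 0.63 ± 0.11 with Cl-BBQ (adjusted p = 0.0011). Its call with TCDD (0.42 ± 0.11, adjusted p = 0.038) was lost on omitting any of 8 single arrays (adjusted p up to 0.11, omitting TCDD replicate 1). Lgmn, the asparaginyl endopeptidase gene listed with them, rose by 0.76 ± 0.15 with Cl-BBQ (adjusted p = 0.0026) and was at 0.48 ± 0.15 with TCDD (adjusted p = 0.091, but 0.041 without TCDD replicate 3).

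Cybb works in a complex with other NADPH oxidase genes. Of 7 of these tested, 2 rose and 1 fell with TCDD, and 3 rose with Cl-BBQ; the medians were 0.04 and -0.0085. Ncf1, the cytosolic organiser p47phox, rose by 0.89 ± 0.18 (SE; limma, adjusted p = 0.0062) with TCDD and 0.83 ± 0.17 (adjusted p = 0.0042) with Cl-BBQ. Cyba, the membrane partner p22phox, rose by 0.69 ± 0.11 with Cl-BBQ (adjusted p = 0.00039) and by 0.48 ± 0.11 with TCDD (adjusted p = 0.016, but 0.053 without TCDD replicate 1). Hvcn1, the proton channel that supports the oxidase, rose by 0.57 ± 0.10 with Cl-BBQ (adjusted p = 0.0011). The fall of Ncf4, encoding p40phox, with TCDD (-0.53 ± 0.15, adjusted p = 0.045) was lost on omitting any of 7 single arrays (adjusted p up to 0.14, omitting TCDD replicate 2).

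Among 6 tested genes of the sialic acid-binding lectins and CD22 signalling, 1 rose with TCDD, and 1 rose and 1 fell with Cl-BBQ; the medians were 0.01 and 0.05. Inpp5d, encoding the inhibitory phosphatase SHIP-1, rose by 0.62 ± 0.09 (SE; limma, adjusted p = 0.00028) and 0.70 ± 0.08 (adjusted p = 3.2e-05). St6gal1, which makes the sialic acid linkage that CD22 binds, fell with Cl-BBQ (-0.40 ± 0.09, adjusted p = 0.0084). Siglecg, the other inhibitory lectin of B cells, had means of 3.72, 3.68 and 3.62 with vehicle, TCDD and Cl-BBQ, below the floor.

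The MS4A genes are the relatives of Ms4a4c. None of 9 tested was called with TCDD by limma, with 1 at an unadjusted p under 0.05, and 1 was called with Cl-BBQ; the medians were -0.0026 and 0.03. Ms4a6b was at 11.55, 11.50 and 11.58 with vehicle, TCDD and Cl-BBQ, Ms4a6c at 7.45, 7.20 and 7.15, and Ms4a4d at 5.70, 5.62 and 5.73. Ms4a4b, the gene next to Ms4a4c, was called higher with Cl-BBQ (0.31 ± 0.09 SE, limma, adjusted p = 0.043), a call lost on omitting any of 10 single arrays (adjusted p up to 0.13, omitting vehicle replicate 3).

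Bves was at 3.28, 3.24 and 3.29 and Popdc3 at 2.94, 3.18 and 2.82 with vehicle, TCDD and Cl-BBQ, so both relatives of Popdc2 were below the floor, as was the Gpm6b relative Gpm6a (4.08, 4.08 and 4.21). Dap, the relative of Dapl1, differed by -0.30 ± 0.14 (SE; limma, adjusted p = 0.27) with TCDD. With Cl-BBQ it differed by -0.41 ± 0.13 (adjusted p = 0.058), and it was called without vehicle replicate 3 (adjusted p = 0.011) or Cl-BBQ replicate 3 (adjusted p = 0.025). With all arrays it was also called after a further quantile normalization (0.040), with the stricter filter (0.032) and with a trended, robust variance model (0.024).

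Dapl1 was also set beside 15 tested genes of naive and stem-like T cells. With TCDD 4 rose and 1 fell, with Cl-BBQ 5 rose and 2 fell, and both medians were 0.02. Il7r, the interleukin 7 receptor chain, rose by 1.36 ± 0.18 (SE; limma, adjusted p = 0.00023) with TCDD and 2.53 ± 0.17 (adjusted p = 2.3e-07) with Cl-BBQ. It was also higher with Cl-BBQ than with TCDD (1.16 ± 0.17, adjusted p = 0.039), a call lost on omitting any of 9 single arrays (adjusted p up to 0.15, omitting Cl-BBQ replicate 2). Cd55, a complement regulator, rose by 1.08 ± 0.24 (adjusted p = 0.011) and 1.38 ± 0.23 (adjusted p = 0.00071). Satb1, a chromatin organiser, rose by 0.41 ± 0.09 (adjusted p = 0.0099) with TCDD and 0.69 ± 0.08 (adjusted p = 5.4e-05) with Cl-BBQ.

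In the same list Treml2, a receptor gene of the TREM family, fell with TCDD (-0.84 ± 0.15 SE, limma, adjusted p = 0.0032) and Cl-BBQ (-0.79 ± 0.15, adjusted p = 0.0019). The rise of the chemokine gene Xcl1 was lost on omitting any of 7 single arrays with TCDD (0.76 ± 0.20, adjusted p = 0.035, up to 0.11 without vehicle replicate 3). With Cl-BBQ (0.77 ± 0.19, adjusted p = 0.016) it was lost without vehicle replicate 3 or 4 (adjusted p of 0.062 and 0.059). The fall of Slamf6, an adhesion receptor gene, with Cl-BBQ (-0.33 ± 0.08, adjusted p = 0.016) was lost without vehicle replicate 1 (adjusted p = 0.052).

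Interferon-stimulated genes were set beside Ms4a4c and Cybb. Of 18 tested, 2 rose with either ligand and none fell, and the medians were 0.09 with TCDD and 0.12 with Cl-BBQ. Oas2, an RNA-sensing synthetase gene, rose by 1.17 ± 0.24 (SE; limma, adjusted p = 0.0042) and Ddx58, encoding the RNA sensor RIG-I, by 0.61 ± 0.12 (adjusted p = 0.0030) with Cl-BBQ. With TCDD the calls of Oas2 (0.90 ± 0.25, adjusted p = 0.046) and Ddx58 (0.44 ± 0.13, adjusted p = 0.0497) were lost on omitting any of 10 and 11 single arrays (adjusted p up to 0.14 and 0.15, omitting TCDD replicate 3).

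**Figure D3:**
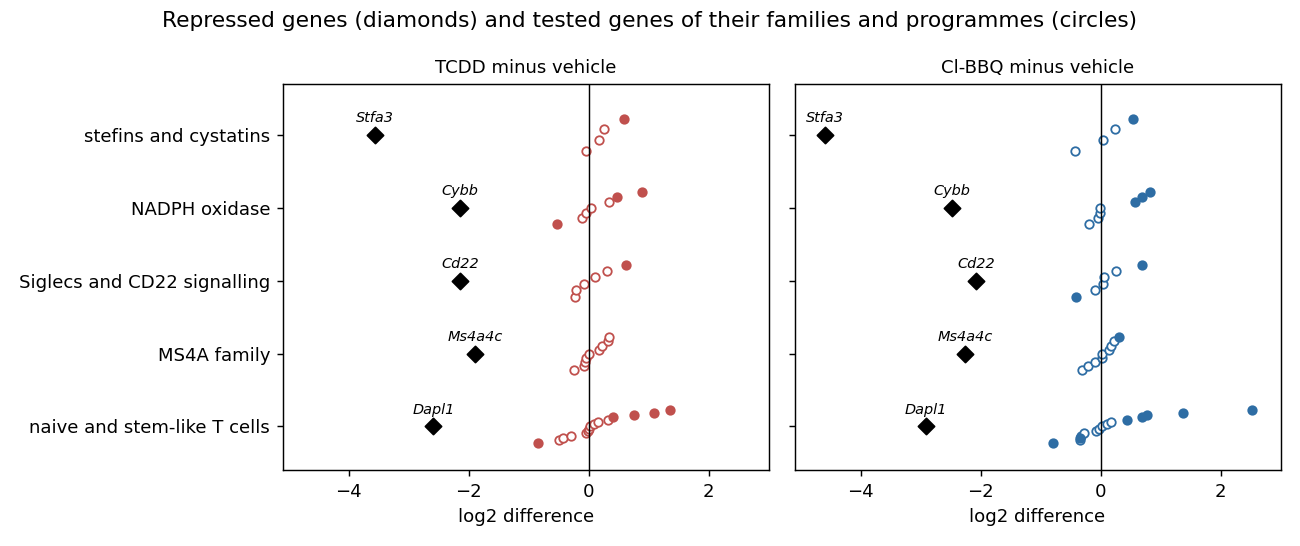
Log2 difference from vehicle (horizontal axis) with TCDD (left) and Cl-BBQ (right) for 5 of the repressed genes (black diamonds) and the tested genes of the family or programme each was set beside (circles, filled where limma's adjusted p was under 0.05). The diamonds lie left of every circle of their row, from which nothing is read, since they were chosen from the largest falls. The circles lie on both sides of 0.

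Position on the chromosome was examined through the 2 nearest genes with a probe set on each side of each member, in the order of the GRCm38.p6 RefSeq table. Of 32 such neighbours 17 were tested. None was called with TCDD by limma, with 2 at an unadjusted p under 0.05 and a median of -0.14. With Cl-BBQ 3 fell and 1, Ms4a4b, rose, with 8 at an unadjusted p under 0.05 and a median of -0.17. Over all tested genes 6.03% were called lower and 5.31% higher with Cl-BBQ. No share of all tested genes at an unadjusted p under 0.05 is given for the contrasts with vehicle. Nothing is therefore read from the counts of 2 and 8. Xk, a membrane protein gene near Cybb on chromosome X, fell by 0.61 on the log2 scale (limma, adjusted p = 0.010), and Pkp4, a plakophilin gene near Dapl1 on chromosome 2, fell by 0.66 (adjusted p = 0.0060). Dynlt3, a dynein light chain gene on the other side of Cybb, fell by 0.46 (adjusted p = 0.029), a call lost on omitting any of 4 single arrays (adjusted p up to 0.097, omitting vehicle replicate 2).

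The sorted cells were checked against markers, since several of the 8 genes are better known in B cells or phagocytes. The T cell list, including Cd4 (10.52, 10.58 and 10.58 with vehicle, TCDD and Cl-BBQ) and Cd3e (12.02, 12.14 and 12.14), was above the floor in 9 of 9 genes. The mean of this list lay between 10.72 and 10.95 on vehicle arrays, 11.04 and 11.08 on TCDD arrays, and 11.03 and 11.08 on Cl-BBQ arrays. Of the 9, 2 rose with either ligand. Cd6, a co-receptor gene, rose by 0.45 (limma, adjusted p = 0.014) with TCDD, and its call with Cl-BBQ (0.35, adjusted p = 0.029) was lost on omitting any of 5 single arrays (adjusted p up to 0.091, omitting vehicle replicate 4). Thy1, the surface glycoprotein gene of T cells, rose by 0.36 (adjusted p = 0.0042) with Cl-BBQ, and its call with TCDD (0.30, adjusted p = 0.035) was lost on omitting any of 7 single arrays (adjusted p up to 0.10, omitting TCDD replicate 3). The vehicle arrays were lower in the mean of this list, without overlap; the part of this shift in the falls of the 8 genes was not tested.

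For B cells the list of 11 genes had means between 3.85 and 3.93 on vehicle, 3.80 and 3.92 on TCDD and 3.76 and 4.00 on Cl-BBQ arrays. Cd79a, a chain of the B cell receptor complex, was at 4.55, 4.56 and 4.35, and Ms4a1, encoding CD20, at 2.59, 2.62 and 2.69. Cd79b, the other chain, was at 4.69, 4.79 and 5.33, a difference of 0.64 ± 0.26 (SE; limma, adjusted p = 0.16) with Cl-BBQ. None of 5 tested B cell markers was called with either ligand by limma, with 0 at an unadjusted p under 0.05 with TCDD and 1, Cd79b, with Cl-BBQ. The ranges of the list mean overlapped between all 3 groups; the part of B cell RNA in the level of Cd22 was not tested.

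Monocyte and macrophage markers, 12 genes, had means between 4.05 and 4.10 on vehicle, 3.93 and 4.13 on TCDD and 3.89 and 4.10 on Cl-BBQ arrays. Lyz2, encoding lysozyme, was at 3.13, 2.35 and 2.89, Csf1r at 4.43, 4.26 and 4.25, and Itgam at 4.26, 4.29 and 4.07. Of 5 tested, Cd68, a lysosomal protein gene, was called higher with both ligands (0.79, limma, adjusted p = 0.024, and 0.64, adjusted p = 0.040). These calls were lost on omitting any of 5 and 7 single arrays (adjusted p up to 0.080 and 0.13, omitting vehicle replicate 3).

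Neutrophil markers, 13 genes, had means between 3.47 and 3.59, 3.43 and 3.67, and 3.47 and 3.73 with vehicle, TCDD and Cl-BBQ. S100a8 (3.11, 3.06 and 3.57), S100a9 (3.55, 4.00 and 3.60) and Ly6g (2.78, 2.79 and 3.08) were below the floor. Cxcr2, of the same list, was at 4.55, 4.07 and 4.49, a difference of -0.48 ± 0.14 (SE, limma, adjusted p = 0.062) with TCDD. Mmp9 went the other way, at 4.04, 4.24 and 4.49, a difference of 0.46 ± 0.15 (limma, adjusted p = 0.060) with Cl-BBQ. The dendritic cell list of 10 genes ranged from 3.94 to 4.40 on vehicle, 4.05 to 4.21 on TCDD and 3.96 to 4.22 on Cl-BBQ arrays, with Itgax at 3.52, 3.29 and 3.46 and Siglech at 4.55, 4.48 and 4.45. In that list Cd209a, a lectin gene, was above the floor at 6.87, 6.89 and 6.80, and H2-Ab1, an MHC class II gene, was at 5.14 ± 0.95 (SD, n = 4), 5.00 ± 0.15 (n = 4) and 5.00 ± 0.20 (n = 5). Natural killer markers, 5 genes, ranged from 3.77 to 3.89, 3.56 to 3.88 and 3.57 to 3.87, with Ncr1 at 4.05, 4.38 and 4.24 and Klrb1c, encoding the receptor NK1.1, at 6.10, 5.77 and 5.60. Klrb1c differed from vehicle by -0.33 ± 0.17 (SE; limma, adjusted p = 0.36) with TCDD and -0.50 ± 0.16 (adjusted p = 0.070) with Cl-BBQ. Eomes, a transcription factor gene of the same list, was at 4.00, 3.39 and 3.61, below the floor and not tested. The part of the lower values of Cxcr2, Klrb1c and Eomes in the results was not tested. None of the tested genes of these 3 lists was called with either ligand by limma, with 1, 0 and 1 at an unadjusted p under 0.05 in each contrast with vehicle. The pair of CD8 genes had means between 5.28 and 5.55 on vehicle, 5.34 and 6.01 on TCDD and 5.66 and 6.12 on Cl-BBQ arrays, with Cd8a at 4.17, 4.75 and 4.77 and Cd8b1 at 6.74, 6.48 and 6.88; neither gene was called by limma, with 1 at an unadjusted p under 0.05 with each ligand. The Cl-BBQ range of this pair lay above the vehicle range without overlap, and its part in the results was not tested.

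**Figure D4:**
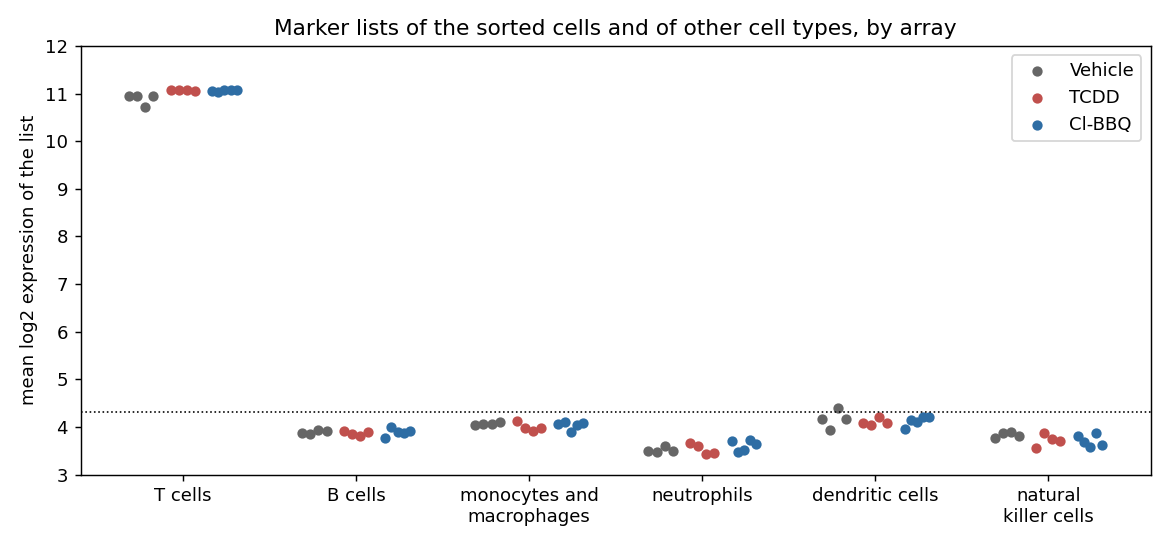
Mean log2 expression (vertical axis) of marker lists for the sorted T cells and 5 other cell types, 1 point per array, with 4 vehicle, 4 TCDD and 5 Cl-BBQ arrays; the dotted line is the floor of 4.31. The T cell list lies near 11 on all arrays, and the other lists shown lie near or below the floor, with overlapping groups. The pair of CD8 genes is not shown. It lay above the floor, from 5.28 to 5.55 with vehicle and from 5.66 to 6.12 with Cl-BBQ, without overlap.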

How the data were processed

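Gene expression was measured on 13 single-colour arrays. The deposited values are log2 expression of 41345 probe sets, made by the authors with RMA, per the submitters' processing notes, with no version stated in the sources used. RMA equalizes array distributions, so a shift of all transcripts cannot be seen. Array medians lay between 4.27 and 4.33. Probe sets naming 1 gene were kept, the one with the highest mean per gene, with symbols updated by gene identifier.

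A mean for each of the 3 groups was fitted to 12710 genes with limma 3.58.1 in R 4.3.3, and p-values were adjusted by the Benjamini-Hochberg method over all of them in each contrast. Genes with adjusted p under 0.05 were called. The share of all tested genes at an unadjusted p under 0.05 is given only between the ligands. Nothing is read from counts at that threshold against vehicle. SE and 95% intervals come from that model, and the number of arrays limits their precision. The fit was tested on simulated data. The 8 genes and the gene lists were chosen with earlier results of these data known. Named are all 8 genes, list members that were called (the 3 largest each way where more than 6 were), near relatives, the 3 nearest patterns, called neighbours and defining markers. Cd68, Cd6, Thy1, Klrb1c, Eomes, Cd79b, Cd8b1, Cd209a, H2-Ab1, Cxcr2, Mmp9 and Mir103-2 were named after their values were seen. In the lists, 23 genes had no probe set naming 1 gene and were not analysed here. Alternatives covered normalization, centring, filter, samples fitted, variance model, probe sets, replicate block and leaving out each array. P-values weigh a difference between groups against the spread between these arrays, which limma estimates for each gene partly from all tested genes.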

Additional observations from a re-analysis of the deposited data

Results flagged for a closer look

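AB124611 on TCDD replicate 2 was at 5.47, below the other 3 TCDD arrays by more than Dixon's 95% limit allows for 4 values. Ms4a4c on TCDD replicate 4 was at 6.47, above the other 3 by the same measure. Of 24 gene and group combinations examined among the 8 genes, these 2 stood out; chance alone marks about 1 in 20. Both values were below every vehicle array of the same gene.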

How the results depend on the processing

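The differences of the 8 genes from vehicle stayed negative under every alternative run, and each moved by less than its SD between replicates. The genes were chosen for large falls on these same arrays, so a change of sign was hardly possible. Leaving out 1 array also moves a group mean by only part of that group's SD. Nothing is therefore read from this stability. Leaving out 1 array at a time gave median differences between -2.35 and -1.97 with TCDD and between -2.80 and -2.55 with Cl-BBQ. With any 1 vehicle array left out Cd22 no longer passed the filter, so those medians are over 7 genes; with the stricter filter they are over 5 (-2.55 and -2.89). No alternative gave a call among the 5 genes tested between the ligands.

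Of the related genes, 14 were called with TCDD and 9 without the filter on low values, where more genes are tested. Leaving out 1 array gave 10 to 14 calls with TCDD and 16 to 19 with Cl-BBQ, against 19 in all arrays. Between the ligands the only call, Il7r, was lost without the filter, with the 2 groups fitted alone and with the replicate block (0 calls each), and leaving out 1 array gave 0 to 1. Replicate numbers recur in all groups, but 0 of 12 same-numbered pairs of arrays had deviations from their group means correlated above 0.1; the main model has no block. The replicate block gave 11 calls with TCDD and 17 with Cl-BBQ; the cause of these changes was not tested. Levels of Cd22, Popdc2, Cybb and Stfa3 in treated cells lie at or below the floor on some or all arrays, where differences are compressed.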
